A study of Mus musculus with 12 samples.

Results

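Tumor DC1 cells and TGF-beta treated DC2.4 cells were compared directly for their glycosylation genes, to ask whether the treated line resembled the tumor cells in which genes were detected, in what order, and at what relative level. The comparison took in 6 of the 12 deposited samples, chosen by their titles, and all 84 genes of a quantitative PCR plate. The tumor DC1 group consisted of dendritic cells labelled CD103-positive, sorted with antibodies from MCA101 fibrosarcomas that had been injected subcutaneously into mice. The labels do not state whether animals were pooled. DC1 is the dendritic cell subset that takes up dead cells and shows their antigens to CD8 T cells. The TGF-beta group consisted of DC2.4 cells, a line of immortalized dendritic cells from mouse, treated with recombinant TGF-beta for 4 days, at 2.5 ng/ml in one protocol of the labels and at 10 ng/ml in another. Splenic DC1, labelled XCR-1-positive, and unstimulated DC2.4 are used below only to place these groups. No other genotype, and no strain, age or sex of the mice, is given in the labels. Of 12 markers of DC1, leukocytes, macrophages and fibroblasts listed for this study, 0 were on the plate, so the cell types could not be checked against markers.

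Each group had 3 files, of which the third was arithmetic on the other 2. In tumor DC1 it equalled 1.021 times their mean in all 81 wells that could be compared, and in TGF-beta DC2.4 it equalled the mean divided by 1.08 in 85 of 93 wells, within 0.002 cycles. The measured samples are therefore 4, 2 per group, and because the labels name no separate animals or cultures, each p-value reflects sample-to-sample spread that may be technical. The second tumor file stood 1 well early. Moving it by 1 well raised its correlation with the first tumor file, across wells, to 0.914 from 0.100, and it was used moved. The tumor and splenic labels are themselves not settled. Across 65 genes the tumor minus spleen difference from the files had a Spearman correlation of -0.968 to -0.974 with the 3 tumor over spleen columns of the authors' deposited table. If those labels were exchanged, the values given here for tumor DC1 would belong to splenic DC1, so values of the samples labelled splenic are given beside the gene order, the distances, detection and the called genes.

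Sugar chains of glycoproteins are built in order. N-glycans are trimmed in the endoplasmic reticulum and Golgi, branched by the Mgat enzymes, extended with galactose and N-acetylglucosamine, and capped with fucose or sialic acid. Mucin-type O-glycans are started by the Galnt family of GalNAc transferases and extended from the core that C1galt1 makes, and finished chains are taken apart by glycosidases of the lysosome. Dendritic cells carry surface glycans that lectins and other receptors of immune cells bind. TGF-beta, a cytokine found in many tumors, signals through SMAD transcription factors.

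Tumor DC1 gave later signals than the treated line. A threshold cycle (Ct) is the PCR cycle where a well's fluorescence reaches a fixed line, so that a later Ct means less template, and a gene was called detected when under 35. The median Ct of detected genes was 30.2 and 28.9 in the tumor samples and 27.5 and 22.8 in the TGF-beta samples. Detected genes numbered 69 and 64 of 84 in the tumor samples and 72 and 76 in the TGF-beta samples. The value of A4gnt in the second tumor sample was lost in the move by 1 well and counts as not detected. Both measures were apart between the groups, with an exact permutation p of 0.333 (two-sided), the smallest that 2 samples against 2 allow. The mean Ct of the reference wells was 23.9 and 22.4 in the tumor samples and 22.1 and 17.0 in the TGF-beta samples. TGF-beta replicate 1 thus lay near tumor replicate 2 and far from TGF-beta replicate 2. The labels give the same RNA input, 50 to 100 ng, for all samples. For a single gene in these sorted and cultured bulk samples, fewer cells that carry its RNA and less of it per cell cannot be told apart. The reverse transcription control wells lay 2.11 and 2.67 cycles after the positive PCR control wells in tumor DC1 and 3.98 and 3.50 cycles after them in TGF-beta DC2.4. These control wells are named from the manufacturer's usual layout, and their part in the differences below was not tested.

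Levels are given as the mean Ct of 5 reference wells minus the Ct of the gene, in log2 units, so that higher values stand for more RNA. Between genes, such levels also carry the efficiency and length of each amplicon, so orders of genes are compared between samples and are not amounts. The reference genes themselves differed between the groups. The Gapdh well stood at -2.30 and -2.09 against the mean of the other 4 wells in tumor DC1 and at 1.22 and 1.34 in TGF-beta DC2.4. The Actb well stood at 3.71 and 4.13 in tumor DC1 and at 1.65 and 1.58 in TGF-beta DC2.4. Relative to the other reference wells, Gapdh, an enzyme of glycolysis, was thus lower in both tumor samples than in both TGF-beta samples. Actb, the cytoskeletal actin, was higher in both tumor samples than in both TGF-beta samples. The files name the Actb well alone, and Gapdh is the usual name of its well in the manufacturer's layout. Each of these differences had an exact permutation p of 0.333.

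**Figure D1:**
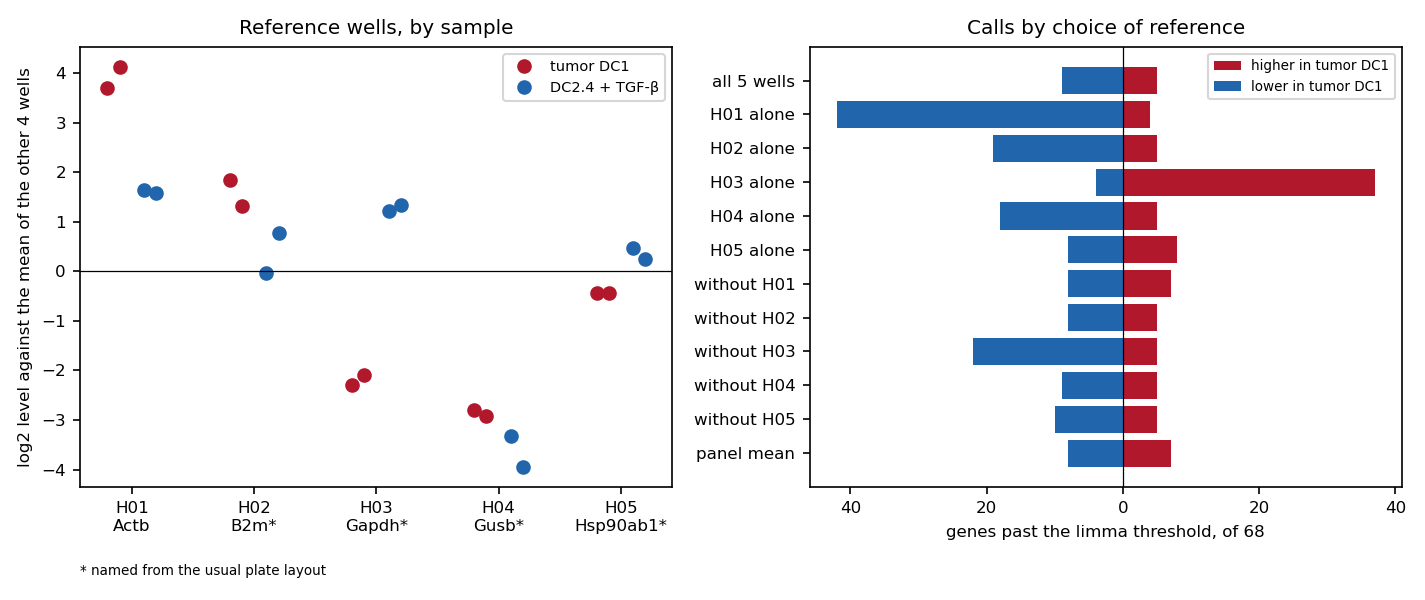
Left, the log2 level of each reference well against the mean of the other 4, for the 2 measured samples of tumor DC1 (red) and of TGF-beta DC2.4 (blue). Right, the number of 68 genes past the limma threshold, higher (red, to the right) or lower (blue, to the left) in tumor DC1, for each choice of reference. The Gapdh well alone gave 37 higher and 4 lower, and the Actb well alone 4 higher and 42 lower.

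The order of genes in tumor DC1 was compared with the order in the treated line, the untreated line and the splenic samples, as a description and without a test of one correlation against another. Across the 65 genes usable in all 4 groups, the Spearman correlation with the mean of tumor DC1 was 0.382 for TGF-beta DC2.4, 0.639 for unstimulated DC2.4 and 0.796 for splenic DC1. Over single pairs of samples it lay between 0.252 and 0.404 for tumor and TGF-beta, between 0.587 and 0.668 for tumor and unstimulated, and between 0.728 and 0.831 for tumor and spleen. These ranges did not overlap, but all 3 use the same 2 tumor samples, and the points are genes on one plate that share their primers in every sample. Taken with the samples labelled splenic in place of tumor DC1, the correlation was 0.626 for TGF-beta DC2.4 (pairs 0.530 to 0.643) and 0.702 for unstimulated DC2.4 (pairs 0.661 to 0.749). With exchanged labels the treated line would thus stand at 0.626 with tumor DC1, instead of 0.382. Within groups the pair correlation was 0.958 in tumor DC1 and 0.826 in TGF-beta DC2.4. Over all 74 genes usable in tumor DC1 and TGF-beta DC2.4, including late ones, the correlation was 0.519.

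Distance gave the same order of groups on average, but not in every measure. With each sample centred on its own median, the mean absolute log2 difference to tumor DC1 over 65 genes was 2.16 and 2.17 in the TGF-beta samples, 1.53 and 1.80 in the unstimulated samples and 0.946 and 1.13 in the splenic samples. Between the 2 tumor samples it was 0.526. Both treated samples stood farther from tumor DC1 than both untreated ones (exact permutation p = 0.333, the smallest possible). By the median over genes, which a few large differences move less, the treated samples stood at 1.53 and 1.09 and the unstimulated ones at 1.12 and 0.952, and these ranges overlapped (exact permutation p = 0.667). Measured to the samples labelled splenic, the mean distance was 1.63 and 1.76 in the TGF-beta samples and 1.41 and 1.64 in the unstimulated samples, which overlapped. The median distance to them was 1.26 and 1.15 in the TGF-beta samples and 1.01 and 0.888 in the unstimulated samples. These did not overlap, with both treated samples farther, so mean and median differed here too.

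The genes of highest mean level differed between tumor DC1 and the treated line. In both tumor samples Man2b1, the lysosomal alpha-mannosidase, ranked 1 of 74, Fuca1, the lysosomal fucosidase, ranked 2, and Hexa, which encodes a lysosomal glycosidase subunit, ranked 3. St8sia4, which makes polysialic acid, ranked 4 in both. The 5 highest genes of the treated line by mean level were B4galt1, B4galt5, Neu1, Galnt3 and Galnt6. B4galt1 ranked 26 and 15 in the tumor samples and 2 and 1 in the TGF-beta samples. Galnt3 ranked 71 and 60 in the tumor samples and 6 and 5 in the TGF-beta samples, near opposite ends of the order. In the samples labelled splenic, Hexa ranked 1 and 2, Man2b1 3 and 5, B4galt1 4 and 6 and B4galt5 5 and 3, so that genes leading in tumor DC1 and in the treated line both stood early. Ranks do not depend on the reference wells.

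**Figure D2:**
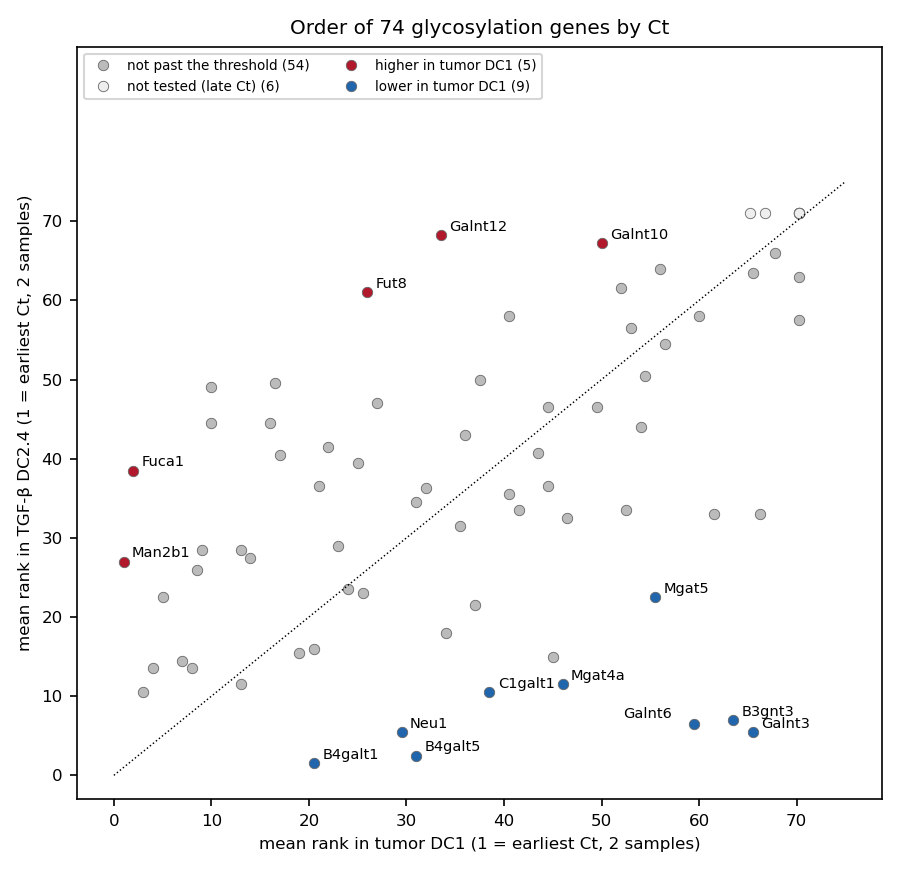
Mean rank by Ct of 74 genes in tumor DC1 (x axis) and TGF-beta DC2.4 (y axis), where 1 is the earliest Ct and late or blank wells share the last ranks. The dotted line marks equal rank. Galnt3, Galnt6 and B3gnt3 lie low on the right, at mean ranks of 65.5, 59.5 and 63.5 in tumor DC1 and 5.5, 6.5 and 7 in TGF-beta DC2.4, and Fut8 lies on the other side of the line, at 26 in tumor DC1 and 61 in TGF-beta DC2.4.

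The largest moves toward earlier ranks in tumor DC1 were those of Ogt, Fuca1, Fut8 and Galnt12. Ogt, which places O-GlcNAc on proteins inside the cell, ranked 6 and 14 in the tumor samples and 39 and 59 in the TGF-beta samples. Fut8 ranked 27 and 25 in the tumor samples and 65 and 57 in the TGF-beta samples. The largest moves toward later ranks were those of Galnt3, B3gnt3, Galnt6 and Mgat4a. Mgat4a ranked 47 and 45 in the tumor samples and 11 and 12 in the TGF-beta samples. Only genes whose ranks were apart between the groups were considered for these 8.

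Detection differed in 1 direction at the limit of Ct 35, but in both at a limit of Ct 33, where Galnt12 was detected in tumor DC1 alone. At Ct 35, 61 of 84 genes were detected in all 4 samples and 6 in none. Those detected in none include A4gnt, whose value in the second tumor sample was lost in the move by 1 well. Detected in both TGF-beta samples and in neither tumor sample were 6 genes, namely B4galt2, Galnt5, Galnt9, Galnt16, Mgat5b and St8sia2, and 0 genes showed the reverse. For B4galt2, Galnt5, Galnt16 and Mgat5b a computed file broke its relation to the others, and they were left out of the level tests below. Among genes kept for those tests, only Galnt9 and St8sia2 showed this pattern. B4galt2, a galactosyltransferase, was blank in both tumor samples, although the computed tumor file held a value for it, and was at Ct 33.7 and 27.2 in the TGF-beta samples. St8sia2, a polysialyltransferase, was at Ct 35.1 and 36.3 in the tumor samples and at 29.3 and 27.2 in the TGF-beta samples. Galnt9 was at 38.8 and 35.4 in the tumor samples and at 31.3 and 28.3 in the TGF-beta samples. Galnt5, Galnt16 and Mgat5b were at Ct 35.4, 35.3 and 38.6 in tumor replicate 1 and blank in replicate 2. All 6 genes were thus late or blank in tumor DC1, some of them by less than 1 cycle past the limit. In the samples labelled splenic, B4galt2 was at Ct 30.7 and 29.5 and Galnt5 at 33.7 and just under 33, detected in both, and the other 4 genes were not detected in both. Galnt5, Galnt16 and St8sia2 broke the relation of the computed splenic file. The first splenic sample also held the same Ct of 31.13 for St8sia2 and St8sia3, and whole numbers for St8sia4 (27) and Uggt1 (29). These genes were not used in the splenic correlations, distances and level tests. For B4galt2 the spleen minus TGF-beta log2 difference was 4.10 (limma adjusted p = 0.0030, from an SE of 1.07 common to all genes). Its levels were -8.40 and -5.22 in the splenic samples and -11.58 and -10.24 in the TGF-beta samples. Its tumor minus TGF-beta difference was not tested, and the tumor bounds of -11.10 and -12.55 overlapped the TGF-beta levels. With exchanged labels its level in tumor DC1 would lie above that of the treated line. The lowest level that a Ct of 35 can show was -11.10 and -12.55 in tumor DC1 and -12.93 and -18.03 in TGF-beta DC2.4, so that a fixed Ct reached deeper in the treated line. When detection was set at 12 cycles after the reference mean of each sample, 2 genes were found in tumor DC1 alone, Galnt10 and Galnt12, and 2 in TGF-beta DC2.4 alone, B4galt2 and Galnt9.

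Levels were tested with limma in 68 genes, after 10 were left out because the computed file of either group broke its relation to the others (A4gnt, B4galt2, Galnt5, Galnt13, Galnt16, Galntl5, Mgat4c, Mgat5b, Neu2 and St6galnac1) and 6 because fewer than 2 of 4 samples were under Ct 35 (Galnt14, Gcnt3, Neu4, St8sia3, Uggt2 and Wbscr17). At a Benjamini-Hochberg adjusted p of 0.05, 14 genes differed (20.6% of those tested). Of these, 5 were higher in tumor DC1 (7.35%), Galnt12, Galnt10, Fuca1, Fut8 and Man2b1, and 9 were lower (13.2%), B3gnt3, Galnt3, Galnt6, B4galt1, B4galt5, Neu1, Mgat5, Mgat4a and C1galt1. The samples of the groups did not overlap in 73.5% of the genes tested, with tumor DC1 below in 52.9% and above in 20.6%. The median log2 difference of all 68 genes was -0.75, and moved between -2.59 and 2.03 over 11 other choices of reference, so some of the largest differences are also given relative to that median. All 14 genes kept their sign in each of the 11 choices, but calls were lost. With the Gapdh well alone B4galt5 (-2.23), C1galt1 (-0.48), Mgat4a (-0.87), Mgat5 (-1.19) and Neu1 (-1.86) no longer passed (limma adjusted p between 0.075 and 0.36). With the Actb well alone Fuca1 (2.14) did not pass (adjusted p = 0.054). Leaving out a sample leaves its group with 1, assumed to vary like the other group, so the remaining pair alone gives the spread. Without tumor DC1 replicate 1 or without replicate 2, where the spread is that of the TGF-beta pair, no gene passed (adjusted p of the 14 genes between 0.096 and 0.261 with limma, 15 genes at an unadjusted p under 0.05 in each). With the second tumor file left unmoved, limma called 0 genes, and 10 had an unadjusted p under 0.05. Without TGF-beta replicate 1, 11 were higher and 15 lower, and without replicate 2, 10 were higher and 27 lower, with the spread of the tumor pair, which lay closer together.

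**Figure D3:**
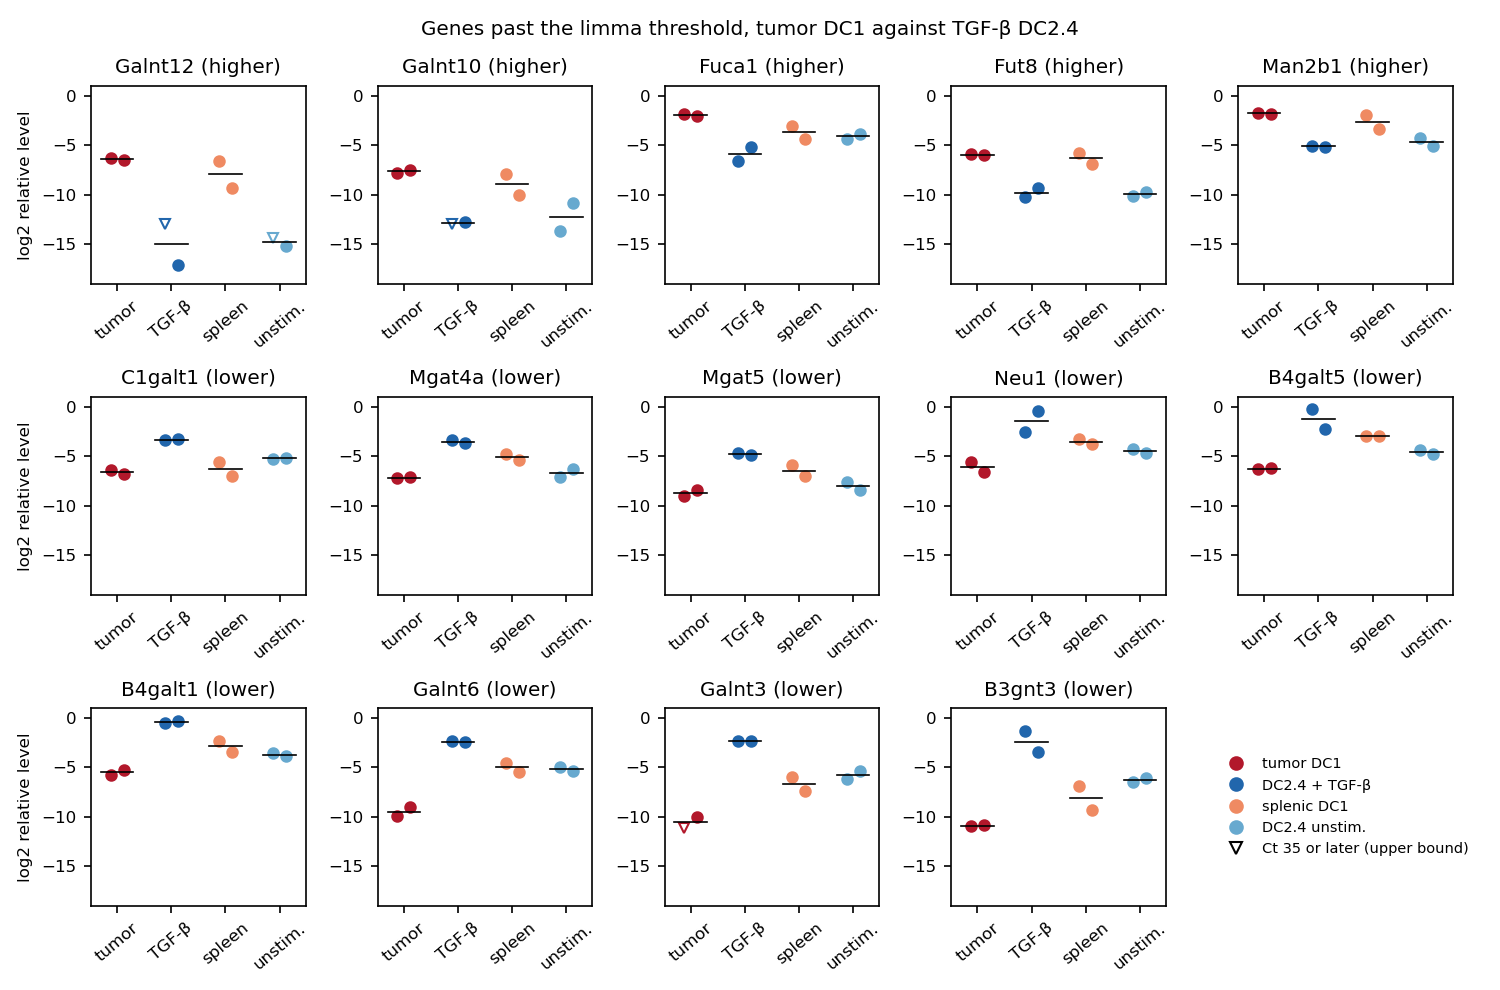
Log2 level relative to the reference wells of the 14 genes past the limma threshold in each measured sample of tumor DC1, TGF-beta DC2.4, splenic DC1 and unstimulated DC2.4. Points are samples, bars are the mean of 2 samples, and open triangles are wells at Ct 35 or later, which are upper bounds. B3gnt3, Galnt3 and Galnt6 lie below -9 in both tumor samples and above -4 in both TGF-beta samples.

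The GalNAc transferases, the starters of mucin-type O-glycans, held both the highest differences and some of the lowest. Of the 17 on the plate, 11 were tested, of which 2 were higher, 2 lower and 7 not past the threshold. Their median log2 difference was 0.13, against -0.75 over all genes. The windows around the annotated starts of Galnt3, Galnt6 and Galnt10 are shown because these paralogs stand on opposite sides of the comparison, and that of B4galt5 because it holds the most SMAD boxes among the genes past the threshold. They are RefSeq sequences of GRCm38.p6, 300 bases each on the strand of the gene, and capitals mark CAGAC on either strand (GTCTG as read here), the short box that SMAD proteins bind.
Galnt3 (lower, chr2:66124744-66125043, minus strand): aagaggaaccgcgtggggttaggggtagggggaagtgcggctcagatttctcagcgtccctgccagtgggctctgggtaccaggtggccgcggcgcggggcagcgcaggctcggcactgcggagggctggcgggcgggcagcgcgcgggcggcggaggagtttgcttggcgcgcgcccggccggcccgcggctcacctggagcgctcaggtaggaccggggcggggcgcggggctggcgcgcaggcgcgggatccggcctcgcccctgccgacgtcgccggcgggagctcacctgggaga
Galnt6 (lower, first start, chr15:100729327-100729626, minus strand): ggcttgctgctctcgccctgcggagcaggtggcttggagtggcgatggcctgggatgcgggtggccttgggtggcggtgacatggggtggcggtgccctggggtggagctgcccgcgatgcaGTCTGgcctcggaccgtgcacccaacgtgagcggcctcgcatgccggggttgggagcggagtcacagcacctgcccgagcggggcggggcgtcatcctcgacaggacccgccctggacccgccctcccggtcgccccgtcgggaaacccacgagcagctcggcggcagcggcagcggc
Galnt6 (lower, second start, chr15:100720428-100720727, minus strand): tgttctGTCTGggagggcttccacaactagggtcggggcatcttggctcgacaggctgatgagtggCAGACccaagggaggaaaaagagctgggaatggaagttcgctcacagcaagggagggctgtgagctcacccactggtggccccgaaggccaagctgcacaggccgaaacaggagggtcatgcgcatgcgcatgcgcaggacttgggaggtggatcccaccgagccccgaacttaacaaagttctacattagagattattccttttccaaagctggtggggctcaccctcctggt
Galnt10 (higher, chr11:57645192-57645491, plus strand): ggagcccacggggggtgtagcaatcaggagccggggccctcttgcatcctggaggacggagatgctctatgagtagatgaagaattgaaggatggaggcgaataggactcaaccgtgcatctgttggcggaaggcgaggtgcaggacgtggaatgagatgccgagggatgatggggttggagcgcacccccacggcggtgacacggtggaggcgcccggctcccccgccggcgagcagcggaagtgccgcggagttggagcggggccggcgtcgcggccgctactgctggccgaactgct
B4galt5 (lower, chr2:167349129-167349428, minus strand): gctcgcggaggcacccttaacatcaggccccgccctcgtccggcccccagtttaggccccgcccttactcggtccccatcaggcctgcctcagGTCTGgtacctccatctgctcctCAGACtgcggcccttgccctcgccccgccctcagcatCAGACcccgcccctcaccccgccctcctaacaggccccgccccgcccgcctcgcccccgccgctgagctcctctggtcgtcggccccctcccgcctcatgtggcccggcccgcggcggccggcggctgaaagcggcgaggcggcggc
The box was present 3 times in the window of B4galt5, 1 and 2 times in the windows of Galnt6, and 0 times in those of Galnt3 and Galnt10. It was in a window of 5 of the 9 genes lower in tumor DC1, and in 1 of 4 higher genes that had a window. It was in 49.6% of all 32851 RefSeq windows and in 51.5% of the 68 panel genes with a window, so its presence is common. These are matches of letters, and no binding was measured.

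Galnt3 stood at a log2 level of -11.10 and -10.02 in the tumor samples, against -2.33 and -2.35 in the TGF-beta samples. It was at least 298-fold lower in tumor DC1 (log2 difference -8.22 ± 0.52 SE, n = 2 per group, limma adjusted p = 0.0051, -7.47 relative to the panel median), a bound because the first tumor sample was at Ct 35.1. In the splenic samples it was at -5.96 and -7.39 and in the unstimulated line at -6.14 and -5.33, between both groups. Galnt6 stood at -9.97 and -9.04 in the tumor samples and at -2.36 and -2.42 in the TGF-beta samples. It was 138-fold lower in tumor DC1 (log2 difference -7.11 ± 0.48 SE, adjusted p = 0.0051). Both genes were close to the same level in both treated samples and low in both tumor samples.

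Galnt12 and Galnt10 ran the other way. Galnt12 stood at -6.26 and -6.49 in the tumor samples, and in the TGF-beta samples it was at Ct 45.5, a bound of -12.93, and at -17.09. It was at least 398-fold higher in tumor DC1 (log2 difference 8.64 ± 1.58 SE, adjusted p = 0.037, 9.38 relative to the panel median), and its log2 difference ranged between 6.56, when TGF-beta replicate 2 was dropped, and 10.72, when replicate 1 was. Galnt10 stood at -7.76 and -7.47 in the tumor samples, and at a bound of -12.93 and at -12.74 in the TGF-beta samples. It was at least 37.2-fold higher in tumor DC1 (log2 difference 5.22 ± 0.36 SE, adjusted p = 0.0051). With late Ct set to 40 Galnt10 did not pass (7.20, limma adjusted p = 0.060), and Galnt12 did not pass without the filter (adjusted p = 0.052) or with the left-out genes kept (0.051). In the unstimulated line Galnt12 was at a bound of -14.37 and at -15.24, so that both states of DC2.4 were low in it, and in the splenic samples it was at -6.61 and -9.28. The 4 called GalNAc transferases thus split, with Galnt3 and Galnt6 higher in the treated line and Galnt10 and Galnt12 higher in tumor DC1. Within the tumor samples Galnt10 ranked only 52 and 48 of 74 and Galnt12 34 and 33.

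C1galt1, which adds galactose to make the core 1 structure on the sugar that Galnt enzymes place, was also lower in tumor DC1. It stood at -6.38 and -6.75 in the tumor samples and at -3.39 and -3.23 in the TGF-beta samples, 9.56-fold lower (log2 difference -3.26 ± 0.36 SE, adjusted p = 0.0099), but -0.48 and not past the threshold with the Gapdh well alone. Its chaperone C1galt1c1 had a difference of -0.88 and Gcnt1, which makes the core 2 branch, of -3.24 with a limma adjusted p of 0.061. Of the 5 genes of O-glycan core extension on the plate, 3 were tested, of which C1galt1 alone passed.

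Enzymes that add galactose and extend polylactosamine had the lowest median of the lists, taken over the mean of both treated samples. Of the 8 on the plate 7 were tested, of which 3 were lower in tumor DC1 and 4 were not past the threshold. The median log2 difference was -5.01, which is -4.26 relative to the panel. B3gnt3, which extends core 1 O-glycans with N-acetylglucosamine, had the most negative difference of the 68 genes. It stood at -10.97 and -10.86 in the tumor samples and at -1.36 and -3.48 in the TGF-beta samples, 362-fold lower in tumor DC1 (log2 difference -8.50 ± 0.85 SE, adjusted p = 0.0077). B4galt1, which adds galactose to N-glycan branches, stood at -5.76 and -5.22 in the tumor samples and at -0.56 and -0.34 in the TGF-beta samples, 33-fold lower (log2 difference -5.04 ± 0.40 SE, adjusted p = 0.0063). B4galt5, the galactosyltransferase of lactosylceramide, stood at -6.25 and -6.22 in the tumor samples and at -0.21 and -2.24 in the TGF-beta samples, 32.2-fold lower (log2 difference -5.01 ± 0.82 SE, adjusted p = 0.028). In B3gnt3 and B4galt5 the treated samples lay farther apart from each other than the tumor samples did. B3gnt4 and B3gnt8 had differences of -5.35 and -4.31 but did not pass (adjusted p = 0.29 each). In both genes the treated samples lay far apart, at -1.74 and -10.31 for B3gnt4 and at -2.49 and -9.52 for B3gnt8. TGF-beta replicate 2 lay beside the tumor samples, which stood at -10.20 and a bound of -12.55 for B3gnt4. For B3gnt8 they stood at -9.57 and -11.06. The list median and its place as the lowest thus leaned on TGF-beta replicate 1.

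Among N-glycan branching genes, Mgat5 and Mgat4a, which add outer branches, were lower in tumor DC1. Mgat5 stood at -8.97 and -8.40 in the tumor samples and at -4.62 and -4.82 in the TGF-beta samples, 15.6-fold lower (log2 difference -3.96 ± 0.40 SE, adjusted p = 0.0077). Mgat4a stood at -7.24 and -7.07 in the tumor samples and at -3.31 and -3.70 in the TGF-beta samples, 12.6-fold lower (log2 difference -3.65 ± 0.37 SE, adjusted p = 0.0077). Mgat1 and Mgat2, which start the inner branches, had differences of 0.71 and 0.55 and did not pass. Mgat4b, which acts on the same branch as Mgat4a, had a difference of -1.37 and did not pass (limma adjusted p = 0.19). Mgat3, which adds the bisecting branch, was just under Ct 35 in both tumor samples and had a difference of -0.85 (95% interval -5.16 to 3.46). Of 8 branching genes on the plate, 6 were tested, 2 were lower and 4 were not past the threshold, and the median difference was -1.11.

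Fut8, which adds the core fucose of N-glycans, was higher in tumor DC1. It stood at -5.91 and -6.0 in the tumor samples and at -10.26 and -9.36 in the TGF-beta samples, 14.5-fold higher (log2 difference 3.86 ± 0.47 SE, adjusted p = 0.012). The unstimulated line stood at -10.18 and -9.77, beside the treated one, and the splenic samples at -5.73 and -6.94, beside tumor DC1. Fut11, the other fucosyltransferase on the plate, had a difference of 2.11 ± 0.49 with a limma adjusted p of 0.058.

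Lysosomal glycosidases, which take sugars off finished chains, had 2 of 8 tested members higher in tumor DC1 and 6 not past the threshold. Their median log2 difference was 0.29. Man2b1 stood at -1.73 and -1.81 in the tumor samples and at -5.08 and -5.15 in the TGF-beta samples, 10.1-fold higher (log2 difference 3.34 ± 0.33 SE, adjusted p = 0.0077). Fuca1 stood at -1.81 and -2.0 in the tumor samples and at -6.63 and -5.15 in the TGF-beta samples, 15.8-fold higher (log2 difference 3.98 ± 0.64 SE, adjusted p = 0.028). The list did not move as one. Hexa stood at -3.40 and -3.32 in the tumor samples and at -3.32 and -3.24 in the TGF-beta samples (log2 difference -0.08, 95% interval -1.04 to 0.88), and Glb1, the lysosomal beta-galactosidase, had a difference of -1.90 with an adjusted p of 0.064.

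Sialidases, which remove sialic acid, had 2 tested members on opposite sides. Neu1, the lysosomal sialidase, stood at -5.61 and -6.57 in the tumor samples and at -2.51 and -0.39 in the TGF-beta samples, 24.9-fold lower in tumor DC1 (log2 difference -4.64 ± 0.92 SE, adjusted p = 0.045). It passed in 6 of the 11 other choices of reference wells. Neu3, the sialidase of the plasma membrane, had a difference of 1.98 ± 0.76 and did not pass (adjusted p = 0.15). Its levels were -7.81 and -9.54 in the tumor samples and -10.97 and -10.34 in the TGF-beta samples.

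None of the 6 sialyltransferases tested passed, of 8 on the plate, and their median log2 difference was 0.73. St3gal1, which caps core 1 O-glycans, stood at -5.16 and -5.26 in the tumor samples and at -6.90 and -6.44 in the TGF-beta samples (log2 difference 1.46 ± 0.37 SE, adjusted p = 0.064). St6gal1, which caps N-glycans, had a difference of 1.40 ± 0.47 (adjusted p = 0.12) and St3gal2 of -1.13 ± 0.69 (adjusted p = 0.29). With the Actb well alone as reference the sign of St3gal1 and of St6gal1 turned, to -0.38 and -0.44. With the Gapdh well alone (4.24 and 4.18) and with H05 alone (2.10 and 2.04) both passed, St3gal1 also passed without the Actb well (1.92) and St6gal1 with the panel mean as reference (2.22). St8sia6 was at Ct 31.5 and 31.2 in the tumor samples and at 29.3 and 34.2 in the TGF-beta samples, and its difference of 4.04 ± 3.72 rested on the second treated sample, since dropping TGF-beta replicate 2 left -0.93 and dropping replicate 1 left 9.0. St6galnac1 was late or blank in all 4 samples. Ogt had a difference of 3.39 ± 1.64 (adjusted p = 0.22), at -4.16 and -5.19 in the tumor samples and at -5.96 and -10.17 in the TGF-beta samples. Dropping TGF-beta replicate 1 gave 5.49 and dropping replicate 2 gave 1.28.

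**Figure D4:**
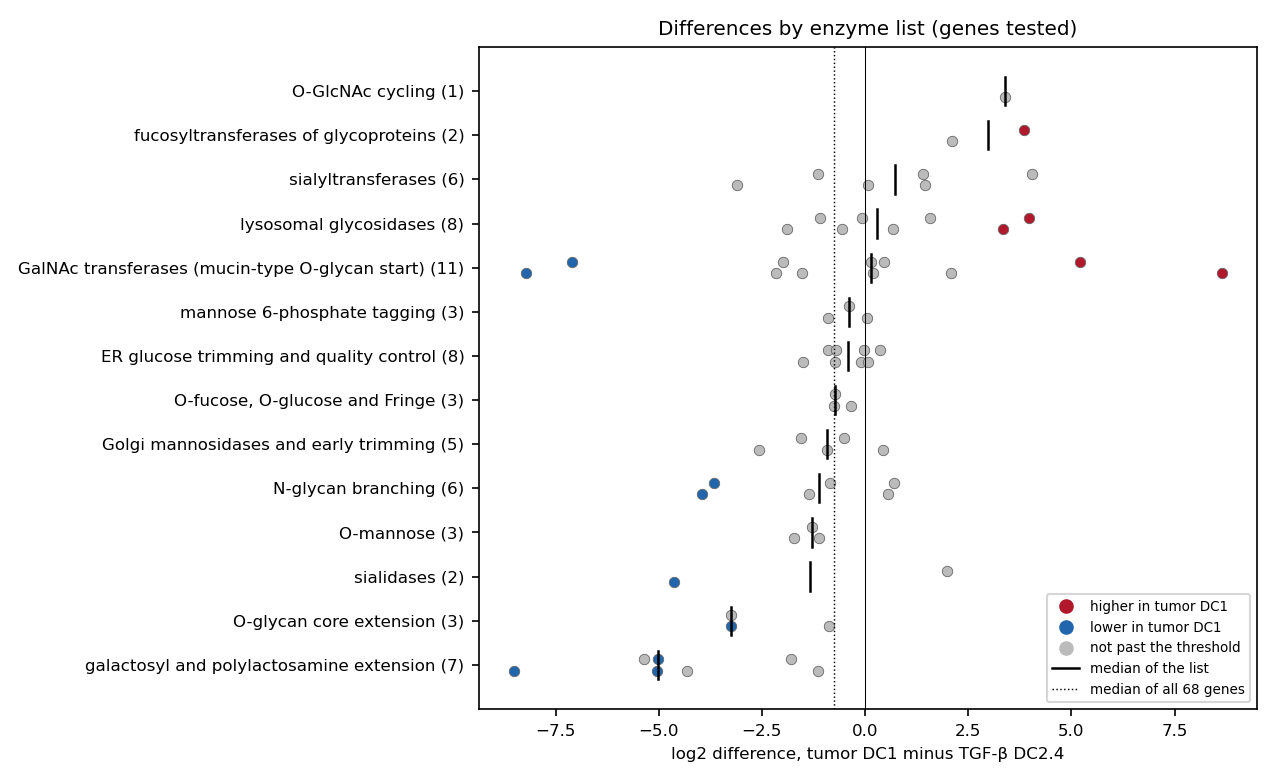
Log2 difference in level, tumor DC1 minus TGF-beta DC2.4, of the 68 genes tested, by enzyme list, with the number tested in brackets. Each point is a gene, red where higher and blue where lower in tumor DC1 past the limma threshold, the bar is the median of the list and the dotted line the median of all 68 genes at -0.75. The galactosyl and polylactosamine list lies lowest, at a median of -5.01 over 7 genes, which leans on TGF-beta replicate 1. The GalNAc transferases spread from -8.22 to 8.64.

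The early steps of N-glycan processing held no gene past the threshold with all 5 reference wells. Nearest to it were Prkcsh (-1.52), Man1a2 (-1.56) and Man1c1 (-2.57), with limma adjusted p of 0.058, 0.062 and 0.068. They passed as lower in 5, 4 and 3 of the 11 other choices of reference. The 8 genes of glucose trimming and quality control had a median of -0.41 and ranged from -1.52 to 0.36, and the 5 Golgi mannosidases had a median of -0.93 and ranged from -2.57 to 0.43. The 3 genes of O-fucose glycans had a median of -0.74, the 3 of O-mannose glycans -1.29 and the 3 that tag lysosomal enzymes with mannose 6-phosphate -0.40. The 5 genes with the smallest differences were Uggt1, Nagpa, Mogs, St8sia4 and Hexa, between -0.08 and 0.07. With all 5 reference wells the 95% interval was -1.22 to 1.30 for Nagpa, which exposes the mannose 6-phosphate tag. It was -1.81 to 1.94 for Mogs, the first glucosidase of the trimming path, and -1.67 to 1.81 for St8sia4. Uggt1, the folding sensor of the endoplasmic reticulum, stood at -4.39 and -4.76 in the tumor samples and at -7.03 and -2.04 in the TGF-beta samples, so its mean difference of -0.04 had an interval of -5.47 to 5.40. Dropping TGF-beta replicate 1 gave -2.53 and dropping replicate 2 gave 2.46, so its sign followed the treated sample kept. Of these 5 genes Hexa had the narrowest interval and Uggt1 the widest. These intervals hold for the 5 wells together. With the Gapdh well alone Nagpa (2.82), Mogs (2.84), St8sia4 (2.85) and Hexa (2.70) passed as higher, and with the Actb well alone Nagpa (-1.80) and Hexa (-1.92) passed as lower.

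The other pairings of a sorted and a cultured group share samples with this one, so their values are set side by side without a test between them. Tumor DC1 against unstimulated DC2.4 called 17 genes (25.0% of 68), 6 higher (8.82%) and 11 lower (16.2%). The samples labelled splenic against TGF-beta DC2.4 called 6 genes (9.52% of 63), 4 higher (6.35%) and 2 lower (3.17%). In that comparison limma gave every gene the same SE of 1.07, so its calls did not depend on a gene's own spread. For tumor minus TGF-beta and tumor minus unstimulated the SE differed by gene, so passing is not a like test across the comparisons. Galnt3 had a log2 difference of -8.22 for tumor minus TGF-beta, -4.82 for tumor minus unstimulated and -4.33 for spleen minus TGF-beta, each past the threshold. B3gnt3 had -8.50, -4.62 and -5.72 in the same order, each past the threshold. Mgat5 and Mgat4a, at -3.96 and -3.65 for tumor minus TGF-beta, had -0.67 and -0.45 for tumor minus unstimulated (limma adjusted p = 0.29 and 0.42) and -1.72 and -1.56 for spleen minus TGF-beta (adjusted p = 0.32 and 0.35). In the unstimulated samples Mgat5 stood at -7.62 and -8.41 and Mgat4a at -7.08 and -6.33, ranges that met those of tumor DC1.

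The other 5 genes lower in tumor DC1 did not pass for spleen minus TGF-beta. Galnt6 had -7.11 for tumor minus TGF-beta, -4.36 for tumor minus unstimulated and -2.62 for spleen minus TGF-beta (limma adjusted p of the last = 0.085). B4galt1 had -5.04, -1.77 and -2.42 (0.11) and B4galt5 had -5.01, -1.67 and -1.73 (0.32) in the same order. C1galt1 had -3.26, -1.38 and -3.0 (0.051) and Neu1 had -4.64, -1.64 and -2.07 (0.18). For tumor minus unstimulated Galnt6, B4galt1, B4galt5 and C1galt1 passed, and Neu1 did not (limma adjusted p = 0.056). With exchanged labels 2 of the 9 lower genes, Galnt3 and B3gnt3, would pass by the SE of 1.07 common to all genes. That SE does not reflect the own spread of B3gnt3, at -6.92 and -9.36 in the splenic samples and -1.36 and -3.48 in the TGF-beta samples.

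Of the genes higher in tumor DC1, Fut8 had 3.86 for tumor minus TGF-beta, 4.02 for tumor minus unstimulated and 3.48 for spleen minus TGF-beta, each past the threshold. Galnt12 had 8.64, 8.43 and 7.07 and Galnt10 5.22, 4.63 and 3.89, each past the threshold. Man2b1 had 3.34, 2.87 and 2.46 and Fuca1 3.98, 2.18 and 2.21, of which the spleen values did not pass (adjusted p = 0.10 and 0.15). Fuca1 was at -3.0 and -4.36 in the splenic samples and at -4.33 and -3.85 in the unstimulated ones, which overlapped.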

How the data were processed

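Per the labels' protocols, 50 to 100 ng of RNA was reverse transcribed and amplified with SYBR Green on a plate of 96 wells, with 84 panel genes and 5 reference wells. Each deposited sample file lists threshold cycles, and per the file headers the settings were start 3, end 15 and threshold 0.2. The deposited series matrix holds Ct minus the Ct of the Actb well, a log2 scale, and the authors deposited a ratio table of fold changes normalized to beta-actin. Wells were named by matching to the matrix within 0.002 cycles. B2m, Gapdh, Gusb and Hsp90ab1 are names from the manufacturer's usual layout for wells H02 to H05.

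Ct over 35 and blank wells were set to 35. A gene was tested where at least 2 of the 4 measured samples were under 35, using two-sided moderated tests of limma 3.58.1 (functions lmFit, eBayes; R 4.3.3) and Benjamini-Hochberg adjustment over 68 genes. The computed files decided which genes were left out and otherwise entered only 1 alternative. As alternatives, other reference wells, late Ct rules, detection filters, limma priors, sets of files and sets of samples were run. Single values were compared by exact permutation with scipy 1.17.1, and plots used matplotlib 3.10.9. The script was tested on simulated data.

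The members, lists and alternatives were chosen with earlier results of these data known. Named genes were those past the threshold, at most 12 per direction, those detected in 1 group alone, the 5 smallest differences, the 5 highest levels per group, the 4 largest rank moves per direction and 16 fixed genes. Any further gene in the text was picked with its values in view. One gene that the rule names is not reported here. Promoter windows came from RefSeq.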

Additional observations from a re-analysis of the deposited data

Results flagged for a closer look

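The control well H06, which in the manufacturer's usual layout detects genomic DNA, gave a Ct of 34.2 in tumor DC1 replicate 1 and was blank in tumor DC1 replicate 2. It was at Ct 40.9 in TGF-beta replicate 1 and blank in replicate 2, and in the unstimulated line it was at 44.0 and blank. It drew attention because it is a signal under Ct 35 in a well outside the panel, earlier than in any of the other 7 measured samples. Panel genes of the same tumor sample with Ct near 35, such as Galnt3 at 35.1 and B3gnt3 at 34.9, are near this value, and its part in their levels was not tested.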

How the results depend on the processing

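The 14 genes past the threshold kept their sign in each of the 23 alternatives other than the unmoved file and the series matrix, or in 22 for Galnt3, Galnt10 and Galnt12, which have no value where all 4 samples had to be under Ct 35. The count of genes lower in tumor DC1, 9, and of genes higher, 5, followed the reference wells. Lower genes numbered 42 with the Actb well alone, 19 with H02 alone, 18 with H04 alone, 22 without H03 and 4 with H03 alone, and higher genes 37 with H03 alone and 8 with H05 alone. With all 6 deposited files 11 were higher and 33 lower, although the computed files add no independent spread, and with a trend and robust prior 15 were lower. With the second tumor file left unmoved, and with the series matrix, which holds it unmoved, 0 were higher and 0 lower (10 and 6 genes at an unadjusted p under 0.05), and the order correlation over the genes tested was 0.080 and 0.043 instead of 0.386. In the series matrix, where blank wells count as 0 cycles, B4galt1 turned to 8.08, Mgat5 to 10.75 and Neu1 to 9.15, none past the threshold. Leaving out 1 sample gave between 0 and 11 higher genes and between 0 and 27 lower genes, with 0 in both directions without either tumor sample, and an order correlation between 0.219 and 0.439. Among genes not past the threshold, Nagpa was -1.80 with the Actb well alone and Hexa 2.70 with H03 alone, past it on the other side. For Uggt1 the value was 2.46 with TGF-beta replicate 2 left out and -2.53 with replicate 1 left out, with 1 sample left in its group and the spread of the tumor pair alone. The order correlation was 0.342 with genes under Ct 35 in all 4 samples. Detection in TGF-beta DC2.4 alone held 8 genes at a limit of Ct 33, 2 at Ct 38, 3 with the unmoved file and 2 at the relative limit, and detection in tumor DC1 alone held 1 at Ct 33, 2 with the unmoved file and 2 at the relative limit. The cause of these changes was not tested. No paired analysis was possible because the labels give the groups no shared replicate numbers. Depth limits the late genes, where a Ct of 35 is a bound.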
